A study of Mus musculus with 21 samples.

Results

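Apical spiral ganglion neurons of mice given a dominant-negative HCN2 channel were compared with apical neurons of mice given a control virus, gene by gene. The comparison took the libraries titled DN-mHCN2 apex and control apex, 4 against 4, which are 8 of the 21 libraries of the series, and every gene that passed a filter on low counts, 14968 in all. Spiral ganglion neurons are the afferent neurons of hearing, which relay hair cell signals to the brain, and those of the apex encode low frequencies. DN-mHCN2 neurons came with an adeno-associated virus (AAV) that carried a site-mutated mouse HCN2 channel, and control neurons, labelled WT, with an AAV that carried EGFP. Further groups were used beside them: neurons with an AAV that carried a truncated SK3 channel (3 apical libraries), and neurons of the cochlear base with DN-mHCN2 (3 libraries) or control virus (4 libraries). All groups were at postnatal day 7, and each library held polyadenylated RNA of about 50 neurons drawn up by micropipette and amplified by Smart-seq2, a full-length cDNA method. The labels name the libraries biological replicates but give no animals, strain, promoter of the virus or site of the mutation, so p-values measure the spread between libraries, and the share of neurons that carried a virus is not given.

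HCN channels are cation channels that open on hyperpolarization and are tuned by cyclic AMP. Their current holds the resting potential of spiral ganglion neurons near threshold and shapes when they fire. HCN subunits assemble into multimers, so a mutated subunit can silence the channels it joins. Before hearing begins, cochlear neurons fire in patterned bursts, and the title of the series asks which genes this activity regulates and how they bear on the making of synapses.

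Library totals ran from 12588322 to 15138780 counts in DN-mHCN2 apex and from 12387384 to 14515698 in control apex. Spearman correlations across genes ran from 0.773 (replicates 1 and 3) to 0.903 within DN-mHCN2 apex, from 0.943 to 0.955 within control apex and from 0.853 to 0.912 between the groups, so that DN-mHCN2 replicates 1 and 3 stood farther from each other than either did from any control library. All 20 neuron markers were present, at a summed level of 17760 to 30603 CPM (counts scaled to a common library total with TMM factors) in DN-mHCN2 apex and 22412 to 24717 CPM in control apex. Markers of Schwann and satellite glia reached 11543 to 18781 CPM in DN-mHCN2 apex and 12680 to 20315 CPM in control apex, so the libraries were not of neurons alone. Other cell types varied by library: supporting cell markers summed to 11656 CPM in DN-mHCN2 replicate 1, against 1999 to 3608 CPM in the other 3 DN-mHCN2 libraries and 894 to 3513 CPM in control apex. Macrophage markers summed to 5.53 to 31.2 CPM in DN-mHCN2 apex and 46.1 to 561 CPM in control apex. In libraries of pooled cells, fewer cells of a type and less RNA per cell cannot be told apart.

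The HCN genes described here were not called. Hcn2 (chromosome 10, 79716634 to 79736108, GRCm38), the gene that the construct carries in mutated form, had 14.6, 31.7, 122 and 80.7 CPM in DN-mHCN2 apex, against 38.2, 19.8, 18.8 and 39.4 CPM in control apex. DN-mHCN2 replicates 3 and 4 lay above every control library and replicate 1 below them all, and the log2 fold change was 1.10 ± 0.81 (SE; adjusted p = 0.666, edgeR quasi-likelihood test). The labels do not give the sequence of the insert, and expression of the construct was not tested. Reads of the construct and of the endogenous gene cannot be told apart in these values. Hcn3 and Hcn4 differed by 0.44 and 0.32 on the log2 scale, with overlapping groups. Pex5l, which codes for the auxiliary subunit TRIP8b that steers HCN channels to the membrane, had 27.5, 33.4, 28.9 and 25.6 CPM in DN-mHCN2 apex, against 13.5, 16.2, 16.3 and 13.5 CPM in control apex. Those groups did not overlap, and the log2 fold change of 0.96 ± 0.33 missed the threshold (adjusted p = 0.261, edgeR). Kcnn3, which codes for SK3, stayed at or below 0.822 CPM in all 8 libraries.

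At a false discovery rate of 0.05, 30 genes were called, 0.2% of those tested: 10 were higher in DN-mHCN2 apex (0.0668%) and 20 were lower (0.134%). In all 30 the libraries of the 2 groups did not overlap, which held for 9.47% of all tested genes. The unadjusted p was under 0.05 for 1783 genes (11.9%), and the median log2 fold change of all genes was 0.01. Other tools called more: DESeq2 called 232 genes, all 30 among them, and limma-voom called 212, with 29 of the 30 among them. Leaving out DN-mHCN2 replicate 1 left 16 calls, leaving out control replicate 2 or 4 left 18 or 19, and leaving out DN-mHCN2 replicate 3 gave 86 (16 higher, 70 lower), all 30 among them. Of the 30, 14 were called whichever library was left out: Rpl29, Rpl26, Dynlt1b, Gm8210, Rpl34, Hist3h2ba, Map3k1, Eno1b, Cox15, Gm4184, Ahcy, Them5, Hddc3 and Rps18. Sequence sharing was common among the 30: 13 of the 28 called genes with a transcript to compare held 20% or more of their 50-base stretches in common with a further gene, which was true of 5.71% of tested genes with a value. Called genes without such copies are described first. Some of their calls ended when genes that share sequence were left out of the test.

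The kinase gene Map3k1 fell to a mean of 41.3 ± 12.7 CPM in DN-mHCN2 apex, against 128 ± 20.3 CPM in control apex (SD, n = 4 each). It codes for MEKK1, a kinase at the head of the JNK and ERK cascades, and lies on chromosome 13 (111746428 to 111808993). Its level was 30.8, 35.9, 38.7 and 59.8 CPM in DN-mHCN2 apex, 105, 98.2 and 78.8 CPM in truncated SK3 apex, and 155, 132, 112 and 112 CPM in control apex. Every DN-mHCN2 library lay below every library of both other groups. The log2 fold change against control was -1.63 ± 0.19 (adjusted p = 7.49e-05, edgeR). Among 33 tested genes of the MAP kinase cascades it was the only call, and the median of that list was -0.16.

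Of the genes without near-identical copies, 3 code for mitochondrial enzymes, and they were called in both directions. Them5, a mitochondrial acyl-CoA thioesterase known for its part in cardiolipin remodelling (chromosome 3, 94342099 to 94347352), had 0, 2.72, 1.16 and 5.45 CPM in DN-mHCN2 apex, against 115, 84.4, 103 and 92.7 CPM in control apex. It fell by 5.40 ± 0.79 on the log2 scale (adjusted p = 0.00286, edgeR), and was close to absent in each DN-mHCN2 library. Cox15, which makes the heme A of cytochrome c oxidase (chromosome 19, 43733254 to 43753000), had 7.64, 11.2, 18.5 and 17.7 CPM in DN-mHCN2 apex, against 74.5, 63.8, 65.1 and 62.0 CPM in control apex. It fell by 2.27 ± 0.29 (adjusted p = 0.000273, edgeR). The other gene of the group, Ptpmt1, a mitochondrial phosphatase of cardiolipin synthesis (chromosome 2, 90908716 to 90918258), was higher, at 63.3 ± 6.06 CPM in DN-mHCN2 apex and 34.6 ± 3.01 CPM in control apex. Its log2 fold change was 0.87 ± 0.18 (adjusted p = 0.0389, edgeR), and it was called in 1 of the 8 fits that left out a library. Exons of Kbtbd4 on the opposite strand cover 45.0% of its exonic bases, and Smart-seq2 does not mark strand.

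Hddc3, which codes for the phosphatase MESH1 (chromosome 7, 80343104 to 80350547), was the other called gene without copies that rose. Its level was 95.4, 85.7, 78.6 and 73.8 CPM in DN-mHCN2 apex, 58.0, 62.5 and 59.4 CPM in truncated SK3 apex, and 26.6, 38.6, 25.1 and 24.9 CPM in control apex. The log2 fold change against control was 1.53 ± 0.24 (adjusted p = 0.00286, edgeR), and the 3 groups did not overlap. Exons on the opposite strand cover part of its exonic bases, those of Gm18310 65.0% and those of Man2a2 11.3%.

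Other called genes without copies that were lower included Atp8b2, Reep1, Mtmr9, Zdhhc5, Impad1 and Srp9. Atp8b2, a phospholipid flippase (chromosome 3, 89939481 to 89963508), had 7.25, 11.6, 6.47 and 3.88 CPM in DN-mHCN2 apex, against 46.1, 21.1, 46.2 and 44.5 CPM in control apex, a log2 fold change of -2.43 ± 0.42 (adjusted p = 0.00968, edgeR). Control replicate 2 stood nearest to the DN-mHCN2 libraries, still above them all. Reep1, which shapes the endoplasmic reticulum and is mutated in a form of hereditary spastic paraplegia (chromosome 6, 71707561 to 71810710), averaged 149 ± 13.3 CPM in DN-mHCN2 apex and 249.6 ± 9.99 CPM in control apex. This change was small but even, at -0.74 ± 0.13 (adjusted p = 0.0131, edgeR). Mtmr9, an inactive partner of lipid phosphatases, averaged 26.8 ± 2.92 CPM in DN-mHCN2 apex and 56.8 ± 6.84 CPM in control apex, and fell by 1.09 (adjusted p = 0.00991, edgeR). Zdhhc5, a palmitoyltransferase of synaptic proteins, averaged 8.84 ± 5.16 CPM in DN-mHCN2 apex and 33.2 ± 3.57 CPM in control apex, and fell by 1.91 (adjusted p = 0.0389, edgeR). Impad1, a Golgi phosphatase, averaged 32.5 ± 13.8 CPM in DN-mHCN2 apex and 86.4 ± 18.2 CPM in control apex, and Srp9, a subunit of the particle that targets proteins to the endoplasmic reticulum, averaged 67.6 ± 2.64 CPM in DN-mHCN2 apex and 109.5 ± 9.37 CPM in control apex. Both were called (adjusted p = 0.0412 and 0.0253, edgeR). Of the 8 fits that left out a library, 6 called Atp8b2, 6 Mtmr9, 5 Reep1, 2 Srp9, 1 Zdhhc5 and 1 Impad1.

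A nuclear receptor and a synaptic scaffold were also lower. Esrrg, the estrogen-related receptor gamma (chromosome 1, 187608791 to 188214885), had 49.4, 115, 177 and 88.9 CPM in DN-mHCN2 apex, 124, 167 and 190.4 CPM in truncated SK3 apex, and 315, 286, 242 and 264 CPM in control apex. Its DN-mHCN2 libraries were spread widely, with replicate 1 lowest and replicate 3 highest, yet all lay below control (log2 fold change -1.36 ± 0.28, adjusted p = 0.0389, edgeR). Shank1, a scaffold of the postsynaptic density (chromosome 7, 44310253 to 44360572), had 12.8, 19.6, 22.9 and 14.2 CPM in DN-mHCN2 apex, against 47.8, 48.2, 34.2 and 46.0 CPM in control apex. It fell by 1.34 ± 0.27 (adjusted p = 0.0412, edgeR). Both calls ended in all but 1 of the 8 fits that left out a library, the one without DN-mHCN2 replicate 3, and the call on Shank1 also ended with GC content and length corrected (adjusted p = 0.0707, edgeR).

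Low-level genes were called where DN-mHCN2 libraries had no count at all. Sema4a, a semaphorin of axon guidance and immune signalling, was at 0 in the 4 DN-mHCN2 libraries and at 0.851, 2.16, 3.73 and 5.28 CPM in control apex (adjusted p = 0.0368, edgeR). Set against a floor of 3 counts per library, it was at least 13.8-fold lower. Zfp33b, a zinc finger gene, was at 0 in DN-mHCN2 apex and in truncated SK3 apex, and at 3.17, 5.25, 2.03 and 3.2 CPM in control apex, at least 15.6-fold lower in DN-mHCN2 apex (adjusted p = 0.0389, edgeR). Leaving out a library ended the call on Sema4a in 6 of the 8 fits and that on Zfp33b in all but 1.

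**Figure D1:**
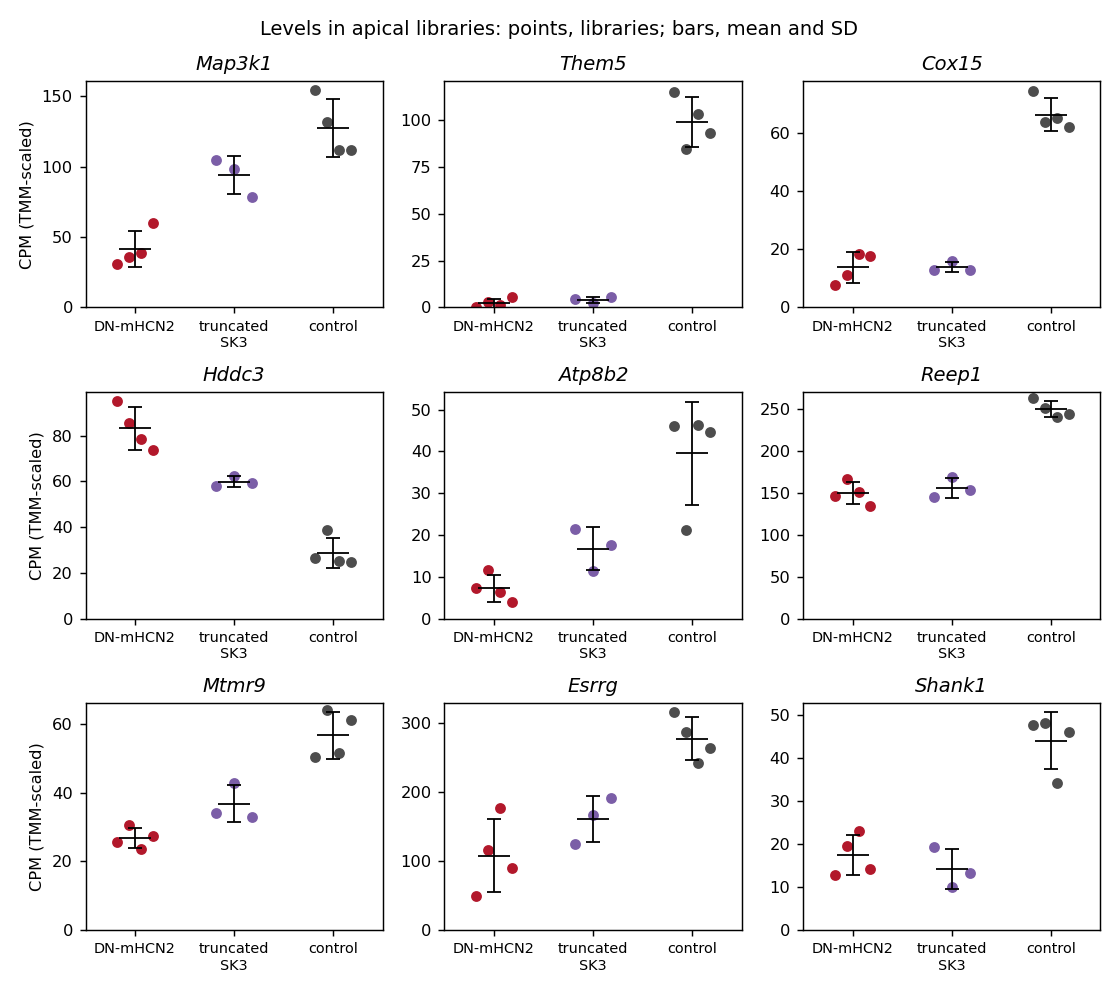
Levels in CPM (vertical axes, linear from 0) of 9 called genes that share under 20% of their sequence with another gene, in DN-mHCN2, truncated SK3 and control libraries of the apex (points; bars give the mean and SD, n = 4, 3 and 4). DN-mHCN2 and control libraries do not overlap for any of the 9, and for Map3k1 the truncated SK3 libraries (78.8 to 105 CPM) also lie above all DN-mHCN2 libraries.

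Most of the remaining calls concerned genes that share sequence with another gene. Some of these have near-identical copies, and their values are best read by family. Rpl34, a protein of the large ribosomal subunit, and Rpl34-ps1, its intronless pseudogene, match at 352 of 354 coding bases (99.4%). The pairs Rpl29 and Gm8210 (a processed pseudogene) match at 480 of 483 bases, and Dynlt1b, a light chain of the dynein motor, matches each of Dynlt1a, Dynlt1c and Dynlt1f at 341 of 342. The lines below give 120 coding bases of each, 5′ to 3′ on the sense strand, read from the GENCODE M21 transcripts of GRCm38 (mm10), since they hold bases by which reads of the copies can be told apart. The base that differs between the copies is in capitals; Dynlt1a and Dynlt1f have the same letters here as Dynlt1c.
Rpl34: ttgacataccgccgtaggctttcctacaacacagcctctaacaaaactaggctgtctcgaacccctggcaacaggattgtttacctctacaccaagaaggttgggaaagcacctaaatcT
Rpl34-ps1: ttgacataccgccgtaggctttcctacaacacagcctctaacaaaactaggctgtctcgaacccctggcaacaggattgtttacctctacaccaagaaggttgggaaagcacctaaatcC
Rpl29: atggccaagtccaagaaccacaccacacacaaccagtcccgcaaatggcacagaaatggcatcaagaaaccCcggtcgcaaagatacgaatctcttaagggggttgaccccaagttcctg
Gm8210: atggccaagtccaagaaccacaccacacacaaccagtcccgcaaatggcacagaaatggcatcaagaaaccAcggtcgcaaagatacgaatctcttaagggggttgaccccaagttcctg
Dynlt1b: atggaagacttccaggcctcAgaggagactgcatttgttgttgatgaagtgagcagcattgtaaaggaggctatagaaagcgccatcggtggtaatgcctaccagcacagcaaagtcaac
Dynlt1c: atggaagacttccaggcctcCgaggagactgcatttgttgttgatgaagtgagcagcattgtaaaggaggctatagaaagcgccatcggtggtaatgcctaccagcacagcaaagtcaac

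Rpl34 and Rpl34-ps1 moved in opposite directions and their sum overlapped between the groups. Rpl34 (chromosome 3, 130726831 to 130730398) had 12.9, 11, 15.6 and 14 CPM in DN-mHCN2 apex, against 82.4, 95.4, 97.1 and 113 CPM in control apex, a log2 fold change of -2.86 ± 0.27 (adjusted p = 2.93e-06, edgeR). Rpl34-ps1 (chromosome 6, 71124610 to 71124963) had 104, 108, 131 and 107 CPM in DN-mHCN2 apex, against 34.0, 11.4, 7.25 and 9.17 CPM in control apex, a log2 fold change of 2.87 ± 0.48 (adjusted p = 0.00963, edgeR). Added together with the third copy Gm4705, they came to 127 ± 14 CPM in DN-mHCN2 apex and 114 ± 8.14 CPM in control apex (SD, n = 4 each), and the libraries of the groups overlapped.

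For Rpl29 the sum over the copies still differed. Rpl29 (chromosome 9, 106429454 to 106431568) had 8.16, 7.96, 8.46 and 9.04 CPM in DN-mHCN2 apex, against 122, 107, 124 and 102 CPM in control apex, the smallest p of all genes (log2 fold change -3.75 ± 0.18, adjusted p = 5.25e-11, edgeR). Gm8210 (chromosome 1, 43189156 to 43189638) had 21.4, 20.1, 19.2 and 18.1 CPM in DN-mHCN2 apex and at most 0.309 CPM in control apex (log2 fold change 7.16 ± 0.61, adjusted p = 5.24e-07). The 2 copies together came to 28.1 ± 1.00 CPM in DN-mHCN2 apex and 114 ± 10.9 CPM in control apex, with no overlap. Copies on lines that were not summed may hold further reads, which was not tested.

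Dynlt1b (chromosome 17, 6430112 to 6436296) had 81.6, 105, 67.0 and 57.3 CPM in DN-mHCN2 apex, against 2.48, 5.79, 2.71 and 2.02 CPM in control apex, a log2 fold change of 4.58 ± 0.34 (adjusted p = 4.52e-08, edgeR). Its copy Dynlt1f averaged 24.7 ± 5.61 CPM in DN-mHCN2 apex and 9.47 ± 1.15 CPM in control apex (adjusted p = 0.0511, edgeR), and Dynlt1c averaged 20.5 ± 5.90 CPM in DN-mHCN2 apex and 26.7 ± 4.83 CPM in control apex, with overlapping libraries. Summed over the 4 copies, the level was 135 ± 33.1 CPM in DN-mHCN2 apex and 43.9 ± 5.29 CPM in control apex, with no overlap. Among 22 tested subunits of dynein and dynactin, whose median log2 fold change was 0.07, edgeR called Dynlt1b. DESeq2 and limma-voom called Dynlt1a, Dynlt1b and Dynlt1f, and edgeR with GC content and length corrected called Dynlt1b and Dynlt1f, all as higher.

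Other families followed one or other of these patterns. Eno1b, a near-copy of the glycolytic enzyme gene Eno1, averaged 216 ± 83.7 CPM in DN-mHCN2 apex and 45.8 ± 3.29 CPM in control apex (log2 fold change 2.24 ± 0.28, adjusted p = 0.000147, edgeR), while the sum of Eno1 and Eno1b came to 1093 ± 139 CPM in DN-mHCN2 apex and 1192 ± 249 CPM in control apex and overlapped. Ahcy, which hydrolyses S-adenosylhomocysteine, averaged 25.5 ± 6.23 CPM in DN-mHCN2 apex and 71.1 ± 2.87 CPM in control apex (log2 fold change -1.48, adjusted p = 0.00182, edgeR); with its copy Gm4737 the sum was 67.6 ± 17.0 CPM in DN-mHCN2 apex and 103 ± 9.71 CPM in control apex. The lysosomal nuclease gene Rnaset2a rose by 1.24 and the GTPase regulator gene Tagap1 fell by 1.19 (adjusted p = 0.00963 and 0.0121, edgeR), and in both families the sums over the copies stayed apart. For Tagap and Tagap1 that sum was 33.4 ± 8.97 CPM in DN-mHCN2 apex and 58.2 ± 8.38 CPM in control apex. Rpl26, a further ribosomal protein gene that shares sequence, averaged 21.8 ± 2.13 CPM in DN-mHCN2 apex and 161 ± 24.7 CPM in control apex (log2 fold change -2.88, adjusted p = 4.93e-09, edgeR). Rps18 averaged 52.0 ± 4.96 CPM in DN-mHCN2 apex and 131 ± 6.59 CPM in control apex (log2 fold change -1.33, adjusted p = 0.00694, edgeR). The histone H2B gene Hist3h2ba was higher, at 86.4 ± 9.14 CPM in DN-mHCN2 apex and 18.8 ± 4.88 CPM in control apex, as was the autophagy gene Nrbf2, at 23.5 ± 4.71 CPM in DN-mHCN2 apex and 6.86 ± 3.43 CPM in control apex. Ublcp1, a phosphatase of the proteasome, was lower, at 92.7 ± 7.69 CPM in DN-mHCN2 apex and 159 ± 12.5 CPM in control apex. Among genes that share sequence, the calls on Ublcp1 (7 of 8 fits), Rpl34-ps1 and Rnaset2a (6 each), Tagap1 (4) and Nrbf2 (2) were the ones that ended without certain libraries. How the authors' counter treated reads that fit several places is not given in the sources used here, so values of single copies are uncertain.

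**Figure D2:**
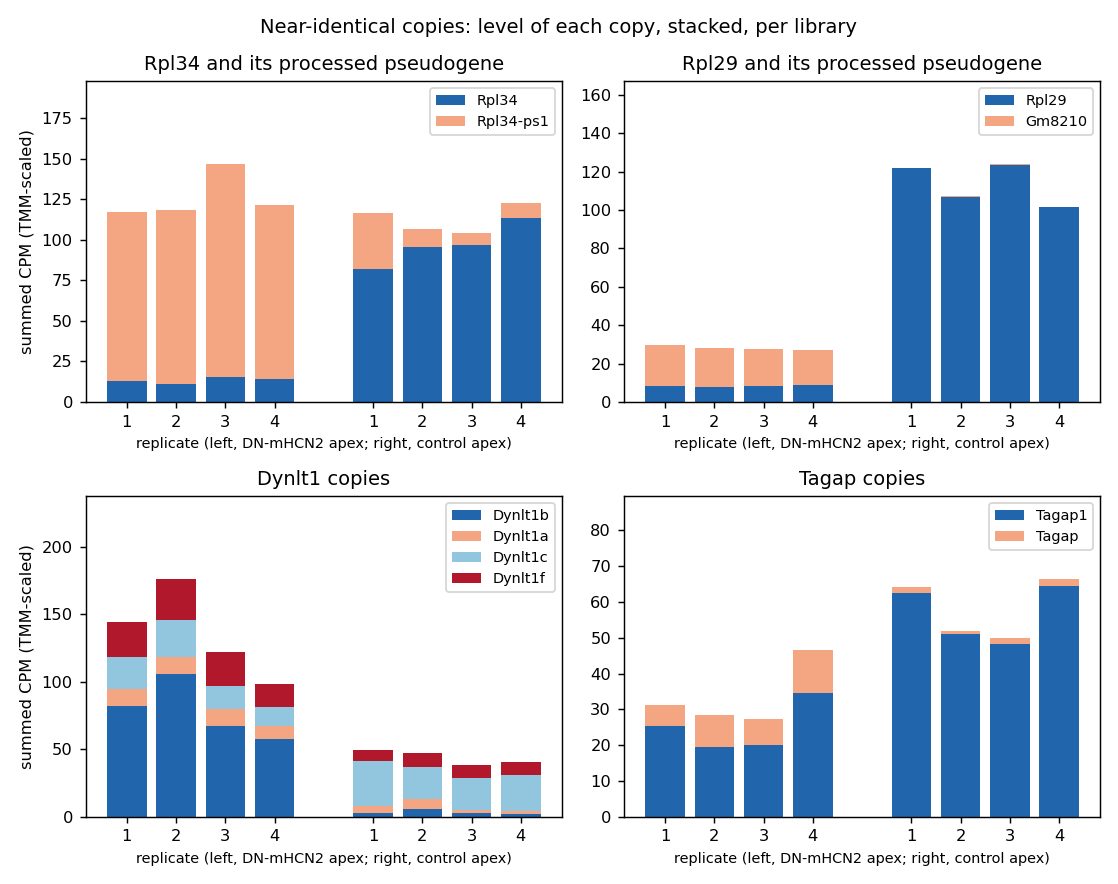
Level of each copy in CPM, stacked (vertical axes, linear from 0), in replicates 1 to 4 of DN-mHCN2 apex (left) and control apex (right) for 4 families of near-identical genes. The full bars of Rpl34 and Rpl34-ps1 reach similar heights in both groups while their colours trade places, the bars of Rpl29 and Gm8210 and of Tagap1 and Tagap are lower in DN-mHCN2 apex, and those of the Dynlt1 copies are higher.

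Gene lists for the neuron's channels, synapses and activity responses, with 0.2% of all genes called as the background, held few calls. No member was called among 38 synaptic vesicle proteins, 27 proteins of the presynaptic active zone, 57 synaptic adhesion molecules, 32 voltage-gated potassium channel genes, 14 calcium channel subunits, 28 glutamate receptor genes or 30 genes that link calcium to CREB (edgeR). Among 20 postsynaptic density scaffolds 1 was called, Shank1. At that background, lists of these sizes would hold few calls or none, so a lack of calls does not set them apart from other genes. With an unadjusted p under 0.05, the vesicle list held 4 genes that were lower, the adhesion list 6 lower and 1 higher, the potassium channel list 4 lower, the glutamate receptor list 2 lower and 3 higher, the CREB list 5 lower and the calcium channel list 0. Other fits made calls in these lists, all lower, among them these: edgeR without DN-mHCN2 replicate 3 called Adgrl2, Cntn1, Kcnh5, Mef2a and Mef2d, DESeq2 called Syp, Lin7c, Adgrl2, Cntn1, Kcnip1, Kcnh5 and Mef2a, and limma-voom called Syp, Syt2, Lin7c, Cntn1, Kcnh5, Mef2a and Mef2d. In the active zone list 6 genes had an unadjusted p under 0.05 and a lower level, and none a higher one, against 6.23% of all genes for lower levels. The median log2 fold change of the active zone list was -0.22, or -0.10 with GC content and length corrected, beside 0.01 for all genes.

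Some genes of these lists missed the threshold in edgeR and passed it in DESeq2, limma-voom or both. Syp, the vesicle protein synaptophysin, had 730.4, 688, 847 and 688 CPM in DN-mHCN2 apex, against 1348, 1019, 1306 and 1004 CPM in control apex. The groups did not overlap, and the log2 fold change was -0.66 ± 0.19, with an adjusted p of 0.183 in edgeR, 0.0491 in DESeq2 and 0.0318 in limma-voom. Syt2, the calcium sensor of fast release, averaged 179 ± 65.4 CPM in DN-mHCN2 apex and 277 ± 20 CPM in control apex (adjusted p = 0.221, edgeR). Lin7c, an active zone scaffold, averaged 48.0 ± 15.1 CPM in DN-mHCN2 apex and 91.6 ± 11 CPM in control apex (adjusted p = 0.105, edgeR), and Cntn1, the adhesion molecule contactin 1, averaged 253 ± 60.5 CPM in DN-mHCN2 apex and 403 ± 37.5 CPM in control apex (adjusted p = 0.0952, edgeR). Kcnh5, an ether-a-go-go potassium channel, had 10.1, 15, 20.7 and 13.8 CPM in DN-mHCN2 apex, against 59.3, 44.1, 34.0 and 46.0 CPM in control apex. Its groups did not overlap, and its log2 fold change of -1.62 ± 0.34 had an adjusted p of 0.0532 in edgeR and 0.0466 with GC content and length corrected. Mef2a, an activity-regulated transcription factor, averaged 170.0 ± 53.8 CPM in DN-mHCN2 apex and 282 ± 33.4 CPM in control apex (adjusted p = 0.157, edgeR).

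Immediate early genes, which neurons switch on within minutes of activity, showed higher values without a call by edgeR or DESeq2; limma-voom called Jund, as higher. Of 32 tested, 26 had a positive log2 fold change (51.3% of all genes did), the median was 0.48, and 6 had an unadjusted p under 0.05, all higher, where 5.68% of all genes were. Egr1, a transcription factor of this class, had 800.1, 465, 379 and 968 CPM in DN-mHCN2 apex, against 256.1, 414, 456 and 289 CPM in control apex. DN-mHCN2 replicates 1 and 4 were high and replicate 3 lay within the control range (log2 fold change 0.88 ± 0.29, adjusted p = 0.233, edgeR). Ier2 followed the same order, at 399, 221, 117 and 511 CPM in DN-mHCN2 apex, against 85.4, 155, 189 and 126 CPM in control apex (adjusted p = 0.251, edgeR). Those 2 libraries also had the most fibroblast markers, 2525 and 2197 CPM, against 1338 and 447 CPM in DN-mHCN2 replicates 2 and 3 and 313 to 1258 CPM in control apex; the part of such cells in these values was not tested. Late activity-regulated genes had a median of -0.04 over 26 genes, with no call.

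Ribosomal protein genes split. Of 82 tested, 72 had a positive log2 fold change and the median was 0.39, while the 4 that edgeR called, Rpl29, Rpl26, Rpl34 and Rps18, were all lower. Other tools called members in both directions: DESeq2 6 as higher and 5 as lower, and limma-voom 5 as higher and 5 as lower. Over all genes, DESeq2 called 96 as higher and 136 as lower, and limma-voom 81 and 131. No member was called as higher by edgeR with GC content and length corrected (4 lower) or without DN-mHCN2 replicate 3 (5 lower). The libraries of the 2 groups did not overlap in 56 members that were higher (4.59% of all genes were higher without overlap) and 5 that were lower (4.88%). Rpl10, a ribosomal protein of the large subunit, was among the few that DESeq2 and limma-voom called as higher. Its log2 fold change of 0.51 lay above the list median, with an adjusted p of 0.127 in edgeR. Cytochrome c oxidase genes were alike: 25 of 31 were positive, the median was 0.36, and the single call, Cox15, was lower. Over all genes, transcripts under 1000 bases had a median of 0.41 over 335 genes, against -0.18 over 2441 genes of 5000 bases or more. With GC content and length corrected, the medians were 0.18 for the ribosomal and 0.16 for the oxidase list, and 0.16 and -0.02 for the short and long transcripts. Of the called members, Rpl29 and Rpl26 have transcripts under 1000 bases, while those of Rps18 (1151 bases), Rpl34 (1232 bases) and Cox15 (4798 bases) are longer.

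**Figure D3:**
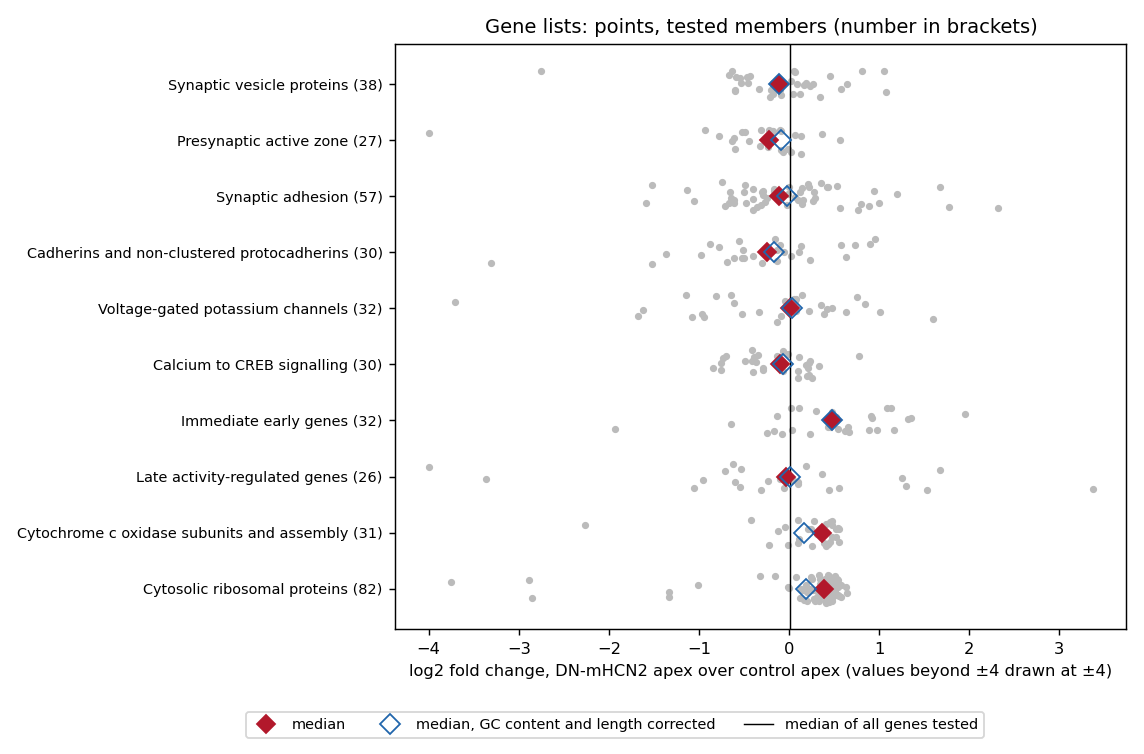
Log2 fold change of DN-mHCN2 apex over control apex (horizontal axis) for the tested members of 10 gene lists (grey points, numbers in brackets), with each list's median (filled) and its median after correction for GC content and length (open). Most ribosomal and oxidase genes lie right of the line for all genes, with the called Rpl29, Rpl26, Rpl34, Rps18 and Cox15 far to the left, and the correction moves both medians towards the line.

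The remaining function lists held no edgeR call outside the genes named above. With DESeq2, Scn4b, Plk1 and the proton pump subunit gene Atp6v1g1 were also called, as higher, and Prkacb, Atp6v0a1, Glrb, Ppp1r15b and Pttg1 as lower; limma-voom called Atp6v0a1, Ppp1r15b, Pttg1 and Sema5a as lower, and edgeR without DN-mHCN2 replicate 3 called Dlgap3 as lower. Their medians lay between -0.69 and 0.44, the lowest being that of 30 antiviral interferon genes, of which 5 had an unadjusted p under 0.05 and a lower level. With genes at 0 in a group set at their bound, that median was -0.52. Pttg1, the cell division gene for securin, averaged 2.43 ± 0.878 CPM in DN-mHCN2 apex and 38.7 ± 7.87 CPM in control apex (log2 fold change -3.99 ± 0.82). Its adjusted p was 0.0511 in edgeR, 0.0413 in edgeR with GC content and length corrected, 2.06e-05 in DESeq2 and 0.00519 in limma-voom. Scn4b, an auxiliary sodium channel subunit, averaged 157 ± 72.4 CPM in DN-mHCN2 apex and 70.3 ± 15.2 CPM in control apex (adjusted p = 0.198 in edgeR, 0.0367 in DESeq2 and 0.0729 in limma-voom). Among markers of other cells, 15 of 16 macrophage genes were on the lower side, at a median of -3.70, and all 15 tested fibroblast genes on the higher side, at a median of 1.20. No marker of another cell type was called by edgeR or limma-voom, while DESeq2 called Adgre1, Fcer1g, Mrc1, Lyz2, Drp2 and Opalin, all lower.

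The cochlear base was compared in the same way, in other libraries of the same viruses. The labels give no animals, and both comparisons share 1 estimate of spread per gene. Agreement between the regions is thus not an independent check of the apical calls. There 320 genes were called between DN-mHCN2 and control, 2.14% of those tested, with 126 higher in DN-mHCN2 (0.842%) and 194 lower (1.3%). All 30 genes called in the apex differed in the same direction in the base, and 24 of them were called there, which is 80% of the apical calls and 7.5% of the basal ones. Map3k1 had 26.2, 25.5 and 28.7 CPM in DN-mHCN2 base, against 133, 98.9, 116 and 109.7 CPM in control base, a log2 fold change of -2.09 ± 0.22 (adjusted p = 1.27e-05, edgeR). Them5 had 2.61, 0.185 and 1.38 CPM in DN-mHCN2 base, against 138, 195, 155 and 215 CPM in control base. Esrrg, whose apical call rested on few fits, had 79.7, 58.5 and 44.9 CPM in DN-mHCN2 base, against 183, 211, 222 and 204 CPM in control base (adjusted p = 0.00553, edgeR), without overlap. The 6 not called in the base were Mtmr9, Reep1, Sema4a, Ptpmt1, Zfp33b and Shank1. Sema4a, at 0 in DN-mHCN2 apex, had 4.08, 0.0927 and 4.22 CPM in DN-mHCN2 base, against 0.697, 2.69, 2.71 and 8.09 CPM in control base, and those groups overlapped.

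**Figure D4:**
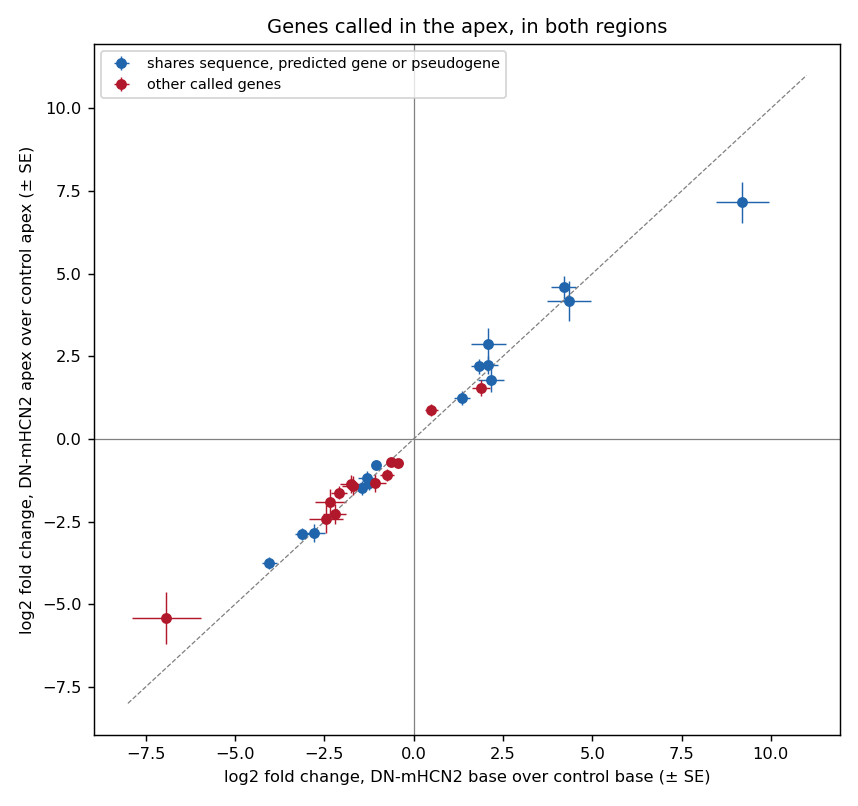
Log2 fold changes with SE of the genes called in the apex, in the base (horizontal axis) and the apex (vertical axis), leaving out Sema4a and Zfp33b, which were at 0 in DN-mHCN2 apex. Points lie on one side of 0 in both regions, both for genes that share sequence or are predicted (blue) and for the others (red); Gm8210 (7.16 in the apex and 9.21 in the base) and Them5 (-5.40 in the apex and -6.92 in the base) are farthest from the dashed line of equal change.

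Whether the effect of DN-mHCN2 differed between apex and base was tested as an interaction, which called 1 gene (0.00668% of those tested). It was Adgre1, the macrophage gene for F4/80, at 0, 0, 0.0829 and 0 CPM in DN-mHCN2 apex, against 3.25, 0.926, 0.610 and 16.1 CPM in control apex (adjusted p = 0.0278, edgeR). In the base it had 0.670, 11 and 43.0 CPM in DN-mHCN2 libraries, against at most 0.0872 CPM in control libraries. Leaving out DN-mHCN2 base replicates 2 and 3, where Adgre1 was highest, keeps only replicate 1 in that group. Such a fit cannot decide whether the call rests on those libraries. Leaving out DN-mHCN2 base replicate 1 gave 34 calls. Of the 30 genes called in the apex, 3 had an interaction p under 0.05 before adjustment, Gm8210, Sema4a and Zfp33b, and none passed adjustment.

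Apical neurons with the truncated SK3 channel, a calcium-gated potassium channel made dominant-negative, allow a direct comparison of the constructs. Control libraries stand on neither side of it and enter only the estimate of spread that all groups share. It called 3 genes (0.02% of those tested), 1 higher in DN-mHCN2 apex (0.00668%) and 2 lower (0.0134%). Of these, 2 were among the 30: Map3k1, lower in DN-mHCN2 apex by 1.19 ± 0.20 (adjusted p = 0.0389, edgeR), and Gm4184. Gm4184, a predicted pseudogene on chromosome 10 (89878250 to 89878573) outside the naming rule, had 19.6, 26.8, 8.46 and 10.6 CPM in DN-mHCN2 apex, 0.440, 0.790 and 1.43 CPM in truncated SK3 apex, and 0.542, 1.00, 0.678 and 1.39 CPM in control apex. DN-mHCN2 libraries thus stood apart from both other groups, by 4.19 ± 0.68 from truncated SK3 (adjusted p = 0.0354) and by 4.16 ± 0.60 from control (adjusted p = 0.0013, edgeR). The third was Gprc5b, an orphan G protein-coupled receptor, with 21.6, 18.8, 21.5 and 30.8 CPM in DN-mHCN2 apex, 123, 96.8 and 109 CPM in truncated SK3 apex, and 20.7, 18.4, 23.1 and 22.4 CPM in control apex. Here truncated SK3 stood apart, and DN-mHCN2 and control overlapped (DN-mHCN2 against truncated SK3 -2.24 ± 0.21, adjusted p = 8.13e-06, edgeR). A fit of the 7 libraries compared called no gene, limma-voom called 1 and DESeq2 94, and leaving out truncated SK3 replicate 1 gave 10 calls.

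For the other called genes, truncated SK3 libraries lay near those of DN-mHCN2 in many and apart from them in others. Truncated SK3 apex was called against control apex in the same direction for Rpl29, Rpl26, Rpl34, Rps18, Dynlt1b, Gm8210, Rpl34-ps1 and Eno1b (edgeR). It was also called so for Hist3h2ba, Cox15, Ahcy, Them5, Rnaset2a, Srp9 and Shank1, while the rest of the called genes missed the threshold. For the genes listed, the difference from control was thus not particular to DN-mHCN2. Missing the threshold does not make the rest particular to it. Reep1 averaged 149 CPM in DN-mHCN2 apex, 155 CPM in truncated SK3 apex and 249.6 CPM in control apex. Its adjusted p for truncated SK3 against control was 0.0516 (edgeR). Zfp33b was at 0 in both constructs (adjusted p = 0.0824 for truncated SK3 against control, edgeR), while Ptpmt1, given below, lay near control in truncated SK3 apex. Both constructs were set against the same 4 control libraries, so their differences from control share error. Cox15 had 12.9, 16.1 and 12.9 CPM in truncated SK3 apex beside 7.64 to 18.5 CPM in DN-mHCN2 apex, and Rpl29 had 6.87, 6.54 and 8.16 CPM in truncated SK3 apex beside 7.96 to 9.04 CPM in DN-mHCN2 apex. The difference between the constructs was 0.23 for Rpl29 (adjusted p = 0.791, edgeR) and -0.02 for Cox15 (adjusted p = 0.998). Ptpmt1 stood otherwise, at 31.1, 40.2 and 39.5 CPM in truncated SK3 apex, with 55.8 to 69.1 CPM in DN-mHCN2 apex and 30.4 to 37.6 CPM in control apex, but the difference between the constructs missed the threshold (adjusted p = 0.281, edgeR). Sema4a, at 0 in DN-mHCN2 apex, had 1.41, 3.16 and 3.62 CPM in truncated SK3 apex (adjusted p = 0.124, edgeR). Atp8b2 averaged 7.31 ± 3.22 CPM in DN-mHCN2 apex (n = 4) and 16.8 ± 5.15 CPM in truncated SK3 apex (n = 3), and the libraries overlapped. Libraries of the constructs also did not overlap for Mtmr9, Hddc3 and Hist3h2ba. Hist3h2ba had 74.2 to 96.1 CPM in DN-mHCN2 apex and 56.4, 70.5 and 73.4 CPM in truncated SK3 apex (adjusted p = 0.715, edgeR). The share of all genes without overlap between the constructs was not computed. Beside Map3k1 and Gm4184, the called genes with an unadjusted p under 0.05 between the constructs were Sema4a, Atp8b2, Impad1, Mtmr9 and Ptpmt1. A missed threshold does not show that the constructs act alike.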

How the data were processed

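The authors deposited 1 table of whole-number read counts per gene symbol, with 21878 lines and 21 library columns, not normalized. The submitters' processing notes name Trimmomatic, HISAT2 and DESeq2 with the builds GRCm38 and mm10; versions, counting tool and gene models are not given in the sources used here. All columns were used. Of the lines, 3555 were at 0 in every library and 27 had a date in place of a symbol; the latter are not named.

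Genes were kept with filterByExpr (14968), normalized by TMM, and tested with edgeR 4.0.16 (glmQLFit, robust, and glmQLFTest; R 4.3.3), 1 mean for each virus and region over all 21 libraries, so all groups share 1 estimate of spread per gene. P-values were adjusted over all tested genes by the Benjamini-Hochberg method and called at 0.05. The SE of a log2 fold change is its size over the square root of F. CPM are counts scaled to equal library totals with the TMM factors; libraries of 12387384 to 15138780 counts in the apex limit precision, and intervals cover no bias of amplification. Coordinates and sequences are from GENCODE M21 on GRCm38, which held 14455 tested symbols (96.6%), and from RefSeq for the few it lacked. Sharing is the percent of 50-base stretches of the longest transcript found in another gene's. Genes were named by rule: HCN genes, Pex5l and Kcnn3, every called gene other than predicted genes, pseudogenes and date names, called members of the 40 gene lists (otherwise the 2 with the smallest p), and the called genes of the other comparisons. Results on some genes so named are not reported here. Copies, Rpl10, the pseudogenes and list members called only by other tools or fits were named after their values were seen. The comparison, the lists and the alternatives were chosen with earlier results of these data known.

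Alternatives were RLE size factors, DESeq2 1.42.0, no filter, a stricter filter (10 CPM in at least 3 libraries), limma-voom (limma 3.58.1) with quality weights, a fit of the compared groups alone, a block on replicate number and each library left out. Added after seeing the data were an offset for GC content and length (splines of 5 degrees of freedom), leaving out genes that share sequence, and leaving out 2 libraries rich in macrophage markers. The last of these keeps only replicate 1 of DN-mHCN2 base, so its calls are not given. The code was tested on simulated data.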

Additional observations from a re-analysis of the deposited data

Results flagged for a closer look

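In sets of 4 libraries, 1 library was flagged where its gap to the next exceeded the critical share of the range; chance flags about 1 set in 20, and 11 of the 106 sets checked were flagged. Among DN-mHCN2 apex libraries these were replicate 3 for Rpl34-ps1 (131 CPM) and Adgre1 (0.0829 CPM, against 0 in the other 3), replicate 4 for Dynlt1a (10.0 CPM, the lowest), replicate 1 for the summed supporting cell markers (11656 CPM) and replicate 2 for the summed endothelial and blood markers (1959 CPM). Among control apex libraries they were replicate 1 for Rpl34-ps1 (34.0 CPM), replicate 2 for Hddc3 (38.6 CPM, the highest) and Atp8b2 (21.1 CPM, the lowest), replicate 3 for Shank1 (34.2 CPM, the lowest), and replicate 4 for Rps18 (141 CPM) and the summed macrophage markers (561 CPM). None of these values made the 2 groups overlap for a called gene.

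The difference in Adgre1 between DN-mHCN2 and control libraries was not the same in apex and base, with an adjusted p of 0.0278 for the interaction in edgeR. This macrophage gene was highest in a few libraries: control apex replicate 4 (16.1 CPM) and DN-mHCN2 base replicates 2 and 3 (11 and 43.0 CPM). The part of macrophage content in this difference was not tested.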

How the results depend on the processing

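For DN-mHCN2 apex against control apex the 30 calls became 232 with DESeq2, 212 with limma-voom and 10 without genes that share sequence, and ranged from 16 to 86 with 1 library left out. Size factors, filters, the groups compared alone and the GC and length correction gave 28 to 39. The interaction, 1 call, had 123 with DESeq2, 0 with limma-voom and 0 to 34 with 1 library left out. Its unadjusted p was under 0.05 for 1026 genes. Against truncated SK3 apex, 3 calls became 94 with DESeq2, 1 with limma-voom, 0 with the groups compared alone (1261 genes had an unadjusted p under 0.05 in the main fit) and 1 to 10 with 1 library left out. Leaving out 1 library kept both groups at 3 or more, except truncated SK3 apex and DN-mHCN2 base at 2.

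Replicate numbers gave no sign of pairing DN-mHCN2 apex with control apex libraries. Deviations of same-numbered libraries correlated at -0.135, -0.0747, -0.248 and 0.00832 over 9944 genes. The labels give no animals or batches, and cell content varied by library, so these values cannot exclude pairing. Whether same-numbered apex and base libraries were paired was not checked. With the number as a replicate block there were 22 calls over all 21 libraries and 6 over the 8 apical ones (2 higher, 4 lower), 0 for the interaction and 1 against truncated SK3.

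Among the genes named here, signs reversed only for some that were not called: Otoa (-0.64 with limma-voom), Gprc5b (-0.0487 to 0.22 without 1 library) and Gm4705 (0.068 with limma-voom, -0.45 to 0.44 without 1 library; 0.00745 and 0.083 with the replicate block over 21 and 8 libraries). The cause of these shifts was not tested. Depth limits genes of a few CPM, such as Sema4a and Zfp33b.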
